A study of Homo sapiens with 4 samples.

Results

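The open regions described here are the ATAC-seq regions on human chromosomes 16, 17, 19 and 22 in 786-O cells with and without DEK. Peaks of the 4 libraries that shared 1 bp or more were joined into regions, and every region on these chromosomes was kept. This gave 15172 of the 138467 regions on chromosomes 1 to 22 and X, with 4762 on chromosome 16, 4978 on chromosome 17, 3455 on chromosome 19 and 1977 on chromosome 22. The chromosomes were chosen because a high share of their one-genotype regions was called in DEK KO cells, so that share is given below as a description and carries no test. By protein-coding genes per Mb they rank 4, 2, 1 and 5 among 23 chromosomes. The name gene-dense therefore fits chromosomes 17 and 19 (14.0 and 24.8 genes per Mb) better than chromosomes 16 and 22 (9.47 and 8.88), since chromosome 11 (9.63) is denser than both.

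ATAC-seq uses a transposase that cuts and tags DNA where nucleosomes leave it exposed, so peaks mark promoters, enhancers and other accessible sites. Small gene-dense chromosomes tend to lie towards the nuclear interior in human cells and hold many GC-rich promoters of broadly used genes, while gene-poor stretches are mostly closed. DEK is an abundant chromatin protein that binds DNA with little sequence preference, introduces supercoils and acts as a histone chaperone.

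Open chromatin was measured in 2 DEK KO libraries and 2 WT control libraries of 786-O, an established human renal carcinoma line that lacks functional VHL. The DEK KO cells came from a Cas9-expressing clone, made with a lentivirus, that was infected with a second virus carrying guide RNAs against DEK and sorted as single cells. The WT control cells, labelled as the negative control, express Cas9 with a wild-type genotype, so both groups carry Cas9. Editing of this kind leaves the DEK locus in the genome, so peaks do not check the genotype labels. The labels do not say which guides were used or whether the 2 libraries of a group are separate clones or cultures, so the spread between them may be technical. The peak names carry a different code in each DEK KO list, whose meaning no source used here gives.

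A few promoters show what the regions called in a single genotype look like as sequence. They are, for each chromosome, the KO-only and the WT-only region of highest rank that overlaps a promoter window. They were picked for print after the values were seen, and chromosome 16 had no WT-only region in such a window. Windows run from 250 bases before to 50 bases after a start of a protein-coding gene (RefSeq, GRCh38.p14), with several for some genes, and are printed 5′ to 3′ on the gene's strand. Capitals mark matches, on either strand, to 7 short motifs. These are the GC box GGGCGG, found in 56.3% of all 22132 windows, the CCAAT box CCAAT (34.6%), the ETS motif CCGGAA (21.2%), the TATA box TATAAA (9.46%), the E-box CACGTG (8.34%), the AP-1 motif TGANTCA (6.15%) and the CRE TGACGTCA (2.26%). No motif is contained in another, and a match is a run of letters, not a shown binding site.

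The KO-only windows belong to PLEKHG4, a guanine nucleotide exchange factor (chr16:67279282-67279581, plus strand), FOXK2, a forkhead transcription factor (chr17:82519482-82519781, plus strand), MLLT1, a reader of acetylated histones in transcription elongation complexes (chr19:6279926-6280225, minus strand), and SMTN, a cytoskeletal protein of smooth muscle (chr22:31063868-31064167, plus strand).
PLEKHG4: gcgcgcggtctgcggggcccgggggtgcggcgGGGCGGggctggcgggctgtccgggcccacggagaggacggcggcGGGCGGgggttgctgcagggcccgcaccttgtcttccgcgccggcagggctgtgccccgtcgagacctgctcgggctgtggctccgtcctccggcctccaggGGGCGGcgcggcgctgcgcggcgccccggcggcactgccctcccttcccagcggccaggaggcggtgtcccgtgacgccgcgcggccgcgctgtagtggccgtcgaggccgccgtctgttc
FOXK2: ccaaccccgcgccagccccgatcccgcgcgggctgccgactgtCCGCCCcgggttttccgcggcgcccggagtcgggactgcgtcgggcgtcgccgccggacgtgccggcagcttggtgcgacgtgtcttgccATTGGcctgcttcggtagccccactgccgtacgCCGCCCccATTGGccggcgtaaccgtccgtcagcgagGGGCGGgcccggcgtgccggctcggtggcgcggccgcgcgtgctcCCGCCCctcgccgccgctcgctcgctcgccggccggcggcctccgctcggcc
MLLT1: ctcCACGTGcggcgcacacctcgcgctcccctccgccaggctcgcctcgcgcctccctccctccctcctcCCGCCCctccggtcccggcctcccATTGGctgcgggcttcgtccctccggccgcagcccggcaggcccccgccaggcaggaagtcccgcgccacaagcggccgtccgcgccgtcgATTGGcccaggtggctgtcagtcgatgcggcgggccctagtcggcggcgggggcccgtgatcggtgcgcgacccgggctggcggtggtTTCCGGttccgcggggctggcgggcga
SMTN: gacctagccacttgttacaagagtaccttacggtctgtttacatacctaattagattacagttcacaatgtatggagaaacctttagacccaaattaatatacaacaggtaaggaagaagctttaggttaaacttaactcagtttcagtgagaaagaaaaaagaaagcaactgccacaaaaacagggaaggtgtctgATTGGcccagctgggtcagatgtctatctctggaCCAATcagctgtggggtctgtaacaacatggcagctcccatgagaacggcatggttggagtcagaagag

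The WT-only windows belong to NATD1 (chr17:21253361-21253660, minus strand), PRODH2, a hydroxyproline dehydrogenase of liver and kidney (chr19:35812796-35813095, minus strand), and PRR5, a subunit of mTOR complex 2 (chr22:44676835-44677134, plus strand).
NATD1: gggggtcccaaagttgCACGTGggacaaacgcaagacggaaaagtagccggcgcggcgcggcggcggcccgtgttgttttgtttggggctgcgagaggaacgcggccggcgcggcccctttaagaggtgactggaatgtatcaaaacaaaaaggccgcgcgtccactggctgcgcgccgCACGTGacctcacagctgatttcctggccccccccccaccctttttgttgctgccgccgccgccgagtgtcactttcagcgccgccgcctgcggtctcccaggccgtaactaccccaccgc
PRODH2: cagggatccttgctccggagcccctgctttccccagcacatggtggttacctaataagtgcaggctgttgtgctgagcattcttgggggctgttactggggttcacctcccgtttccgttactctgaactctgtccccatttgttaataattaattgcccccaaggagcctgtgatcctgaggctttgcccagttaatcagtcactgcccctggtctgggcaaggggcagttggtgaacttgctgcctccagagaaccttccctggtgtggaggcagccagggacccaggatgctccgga
PRR5: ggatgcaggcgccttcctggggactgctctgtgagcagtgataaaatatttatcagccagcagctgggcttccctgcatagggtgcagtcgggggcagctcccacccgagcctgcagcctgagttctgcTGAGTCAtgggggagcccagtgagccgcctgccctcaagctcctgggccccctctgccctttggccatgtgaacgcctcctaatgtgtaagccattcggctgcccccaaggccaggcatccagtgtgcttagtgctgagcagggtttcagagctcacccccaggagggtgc

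PLEKHG4, FOXK2 and MLLT1 are GC-rich, with 80.7%, 79.0% and 77.7% G and C, and each holds at least 1 GC box. SMTN, with 42.7% G and C, holds CCAAT boxes alone. Among the WT-only windows NATD1 (65.7% G and C) holds E-boxes, PRR5 (62.0%) holds an AP-1 motif and PRODH2 (56.0%) holds none of the 7. Over all windows on the 4 chromosomes that a region overlapped, the GC box was present in 18 of 26 KO-only windows (69.2%), in 2 of 6 WT-only windows (33.3%) and in 1654 of the 2190 windows open in all 4 lists (75.5%). The ETS motif was present in 2 of the 26 KO-only windows (7.69%), in 1 of the 6 WT-only windows and in 765 of the 2190 windows open in every list (34.9%). With 26 and 6 windows these shares are descriptions.

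The DEK KO lists held 102760 and 99508 peaks and the WT control lists 89563 and 90409. On the 4 chromosomes there were 11705 and 12068 peaks in DEK KO libraries 1 and 2, against 9970 and 10094 in WT control libraries 1 and 2, which is 11.4% and 12.1% of the DEK KO lists and 11.1% and 11.2% of the WT control lists. The deposited fold and p of each peak fix its summit pileup and the local background it was compared with. Both were recovered for every peak. Pileup is the count over the summit, and the sources used here do not say whether reads or fragments were counted. The lowest pileup called was 7 in each DEK KO list and 8 in each WT control list. DEK KO library 2 stands apart in 1 respect that matters below: in regions called everywhere, its pileup relative to the other libraries was higher where genes are dense. The shares, pileups and backgrounds of the 4 chromosomes are given with and without it.

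Compared with the other 19 chromosomes, the 4 chromosomes held more peaks per Mb, more of them at gene ends, and of higher median rank by −log10 p, in every library. These measures do not use the genotype contrast, but they are tied to gene density. The 4 chromosomes together hold 13.9 protein-coding genes per Mb and the others 5.84, so a higher gene-end share was likely beforehand. Peak density was 38.7 ± 3.83 per Mb on the 4 chromosomes and 30.8 ± 2.03 on the others (SD, n = 4 libraries). A gene-end peak lies within 1 kb of either end of a protein-coding gene, and such peaks made up 23.4% ± 1.61 on the 4 chromosomes and 12.8% ± 0.805 on the others. The median percentile of −log10 p within a list, where 100 is the strongest peak, was 54.1 ± 0.571 against 49.5 ± 0.147. Median width was 605 ± 26.9 bp against 594 ± 34.6 bp. Each of the 4 measures was higher in 4 of 4 libraries, and each exact sign-flip permutation test gave p = 0.13 (two-sided, adjusted 0.13 over the 4 measures), the smallest that 4 libraries allow. Median fold over background, which was not tested, was not higher in every library. It was 5.83 on the 4 chromosomes and 5.83 on the others in DEK KO library 1, and 6.42 against 6.53 in DEK KO library 2. In WT control libraries 1 and 2 it was 6.33 against 6.32 and 5.86 against 5.78.

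Of the 4, chromosome 19 had the highest gene-end share and median percentile in every library. Its gene-end share was 32.2% in each DEK KO library, against 36.4% and 35.4% in WT control libraries 1 and 2, and its median percentile was 57.9 and 56.8 in DEK KO and 56.8 and 57.0 in WT control. Chromosome 16 had the lowest gene-end shares of the 4, with 16.9% and 17.4% in DEK KO and 19.9% in each WT control library. On all 4 chromosomes the gene-end share was lower in both DEK KO libraries than in both WT controls. The same held on the other 19, with 11.8% and 12.5% in DEK KO against 13.5% and 13.4% in WT control. The count of gene-end peaks on the 4 chromosomes was not lower, with 2570 and 2660 in DEK KO against 2473 and 2501 in WT control.

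Regions were next classed by the lists that called them. A KO-only region had a peak in each DEK KO list and none in the WT control lists, and a WT-only region the reverse. The 4 chromosomes held 1102 KO-only regions, 7.26% of their regions against 6.26% over all chromosomes and 6.14% on the other 19. They held 251 WT-only regions, 1.65% of their regions against 2.57% over all chromosomes and 2.68% on the other 19. KO-only regions thus made up 81.4% of the one-genotype regions (exact 95% binomial interval 79.3 to 83.5), against 69.6% (68.8 to 70.5) on the other 19 chromosomes, where 7571 were KO-only and 3303 WT-only. These intervals cover counting error of regions within 4 lists and say nothing of the spread between clones. Regions called in any other combination of lists do not enter this share. Regions called in all 4 lists made up 50.1% on the 4 chromosomes, against 44.7% on the others and 45.3% over all.

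The scarcity of WT-only regions was common to the 4 chromosomes, whereas chromosome 22 also had many KO-only regions. Chromosome 16 had 335 KO-only and 79 WT-only regions, a KO-only share of 80.9% (76.8 to 84.6). Chromosome 17 had 351 and 86, a share of 80.3% (76.3 to 83.9). Chromosome 19 had 223 and 49, a share of 82.0% (76.9 to 86.4). Chromosome 22 had 193 and 37, a share of 83.9% (78.5 to 88.4). These intervals overlap one another. As a percentage of regions, WT-only calls were 1.66, 1.73, 1.42 and 1.87 on chromosomes 16, 17, 19 and 22. KO-only calls were 7.03, 7.05 and 6.45 on chromosomes 16, 17 and 19, and 9.76 on chromosome 22. Among the other 19 chromosomes the share ran from 58.9% on chromosome 1 to 76.1% on chromosome 20, with a median of 70.9%. Chromosome 20, the next below the 4, has an interval of 71.3% to 80.5% that overlaps theirs.

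**Figure D1:**
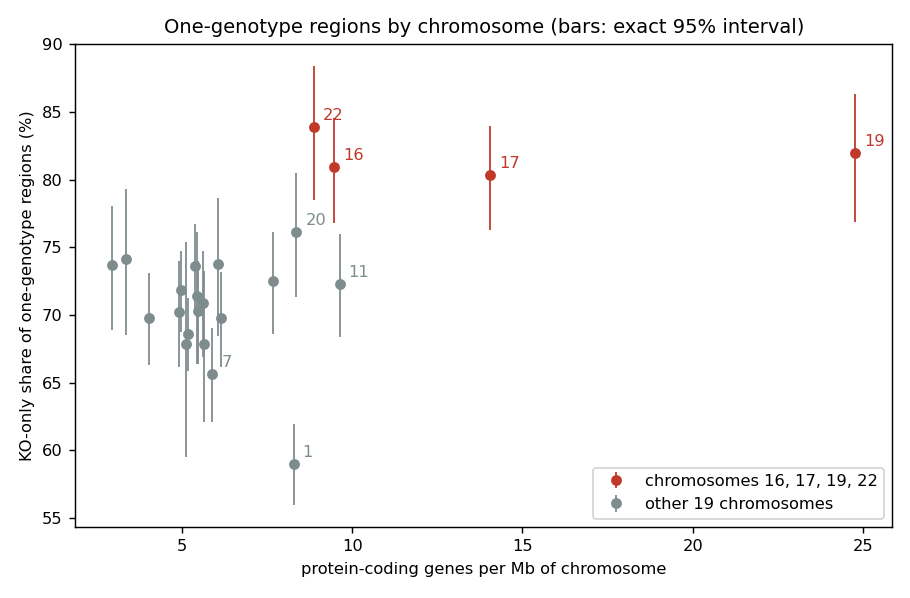
Share of KO-only among one-genotype regions (vertical axis, %, exact 95% interval) against protein-coding genes per Mb (horizontal axis) for chromosomes 16, 17, 19 and 22 (red) and the other 19 chromosomes (grey). The 4 red points lie between 80.3% and 83.9%, whereas the grey points run from 58.9% to 76.1%.

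Over all 23 chromosomes genes per Mb and KO-only share had a Pearson r of 0.524 and a Spearman rank correlation of 0.379, but over the 19 others they had r = −0.168 and a rank correlation of −0.0597. Both are descriptions over chromosomes that share the same 4 libraries, and the first includes the chromosomes chosen for their share. Bins of 5 Mb were grouped by density next. On the 4 chromosomes the KO-only share was 79.8% in bins with under 5 genes per Mb, 79.5% with 5 to 10, 83.3% with 10 to 20 and 82.0% with 20 and over. On the other 19 chromosomes it was 68.4%, 70.0%, 72.0% and 72.0% in the same order, so it was lowest in their least gene-dense bins. In each density class the 4 chromosomes lay above the others, which follows in part from choosing them for this share. The gene-poor bins of the 4, with 91 KO-only and 23 WT-only regions, lay above the densest bins of the others, with 244 and 95. The intervals of these bins overlap. Over the 37 bins of the 4 chromosomes with at least 20 one-genotype regions, density and share had r = −0.0797, and over the 284 such bins of the other 19 chromosomes they had r = 0.132.

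**Figure D2:**
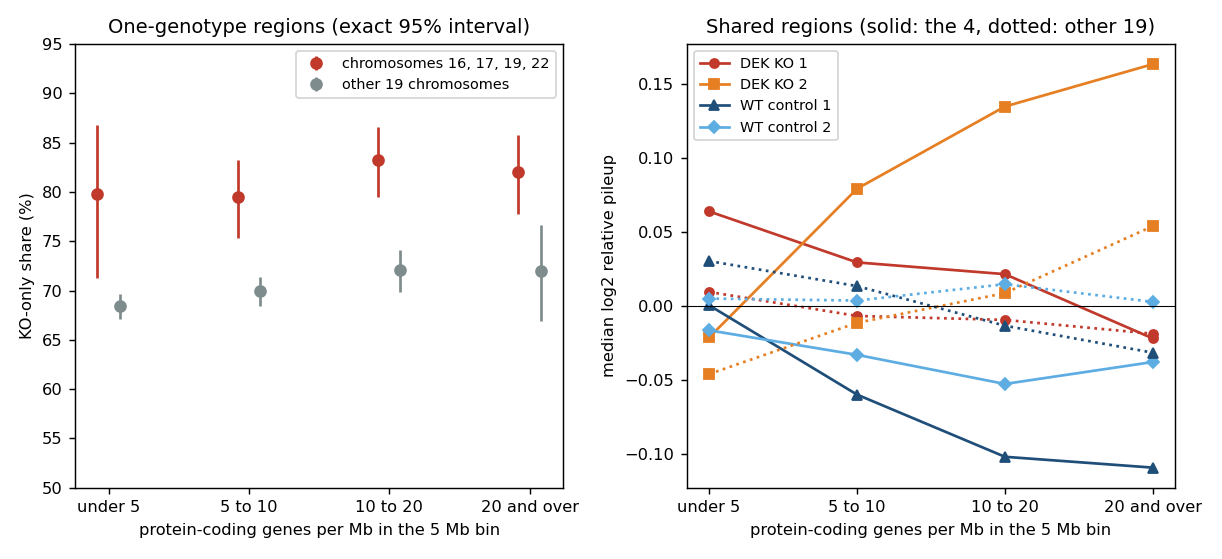
Left, KO-only share (%, exact 95% interval) in 5 Mb bins grouped by protein-coding genes per Mb, for chromosomes 16, 17, 19 and 22 (red) and the other 19 (grey). Right, median log2 relative summit pileup of regions called in all lists, per library, in the same groups (solid, the 4 chromosomes; dotted, the other 19). The red points lie above the grey in each group, and the line of DEK KO library 2 climbs with density to 0.16 on the 4 chromosomes.

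The shares of the 2 arms overlapped in their intervals on chromosomes 16, 17 and 19. On chromosome 16 the short arm held 146 regions of the KO-only class against 33 of the WT-only class (81.6%), and the long arm 189 against 46 (80.4%). On chromosome 17 the short arm had 86 and 15 (85.1%, interval 76.7 to 91.4) and the long arm 265 and 71 (78.9%, interval 74.1 to 83.1). On chromosome 19 the arms had 112 and 24 (82.4%) and 111 and 25 (81.6%). Nearly all regions of chromosome 22 lie on its long arm, since the short arm held 3 regions and none in a single genotype. Shares also varied between 5 Mb bins. Among bins with at least 20 one-genotype regions, the highest on chromosome 16 was at 50 to 55 Mb, with 26 KO-only regions and 1 WT-only. On chromosome 17 it was at 75 to 80 Mb (37 and 3), on chromosome 19 at 15 to 20 Mb (37 and 4) and on chromosome 22 at 20 to 25 Mb (37 and 2). The lowest were at 10 to 15 Mb on chromosome 16 (24 and 9), 55 to 60 Mb on chromosome 17 (18 and 9), 10 to 15 Mb on chromosome 19 (24 and 9) and 40 to 45 Mb on chromosome 22 (28 and 11). In all 8 of these bins KO-only regions outnumbered WT-only regions.

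For chromosomes 17 and 19 the distance to the other chromosomes rested on DEK KO library 2. Without that library, a region counted as KO-only if DEK KO library 1 alone called it, and the shares were 79.3% on chromosome 17 and 78.8% on chromosome 19 against 78.2% on the other 19. Chromosome 16 (84.9%) and chromosome 22 (86.1%) were further above the others. Without DEK KO library 1 the shares were 79.0%, 81.6%, 85.5% and 85.3% on chromosomes 16, 17, 19 and 22 against 70.7% on the other 19. Calls made in a single list also differed between the DEK KO libraries, but not on chromosomes 17 and 19 alone. DEK KO library 1 alone called 6.83% and 6.57% of regions on chromosomes 17 and 19, below its 9.63% on the other chromosomes. DEK KO library 2 alone called 10.6% and 10.1% there, above its 9.05% on the other chromosomes. Chromosome 22 leaned the same way, with 8.24% in DEK KO library 1 alone and 11.1% in DEK KO library 2 alone. On chromosome 16 these values were 9.55% and 9.81%. List length matters as well: with every list kept to the length of the shortest, the shares were 69.6%, 70.3%, 73.8% and 77.3%, against 54.8% on the other 19.

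Regions called in all 4 lists allow pileups to be set side by side. Each region's log2 pileup was taken relative to its mean over the 4 libraries and to the library's median over all chromosomes, so 0 is the typical region of a library and the 4 values of a region are tied to each other. On chromosome 22 both DEK KO libraries were high and both WT controls low, by more than on any other chromosome. The medians over 982 regions were 0.10 and 0.22 in DEK KO libraries 1 and 2, against −0.20 and −0.12 in WT control libraries 1 and 2. The genotypes did not overlap, and the difference of 0.32 on the log2 scale is 1.25-fold (SD 0.09 in DEK KO and 0.06 in WT control, n = 2 each).

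The other 3 chromosomes leaned the same way by less. On chromosome 19 the medians were −0.02 and 0.15 in DEK KO against −0.11 and −0.04 in WT control, a difference of 0.14. On chromosome 17 they were −0.01 and 0.11 against −0.07 and −0.03, a difference of 0.10. On chromosome 16 they were 0.02 and 0.06 against −0.05 and −0.03, a difference of 0.08. Both DEK KO libraries were above both WT controls on each, although DEK KO library 1 exceeded WT control library 2 by little on chromosomes 17 and 19. Without DEK KO library 2 the differences were 0.05 on chromosome 16, 0.04 on chromosome 17, 0.05 on chromosome 19 and 0.27 on chromosome 22. The other 19 chromosomes ran from −0.17 on chromosome 1 to 0.11 on chromosome 20, so chromosomes 16 and 17 lie within the range of the others.

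**Figure D3:**
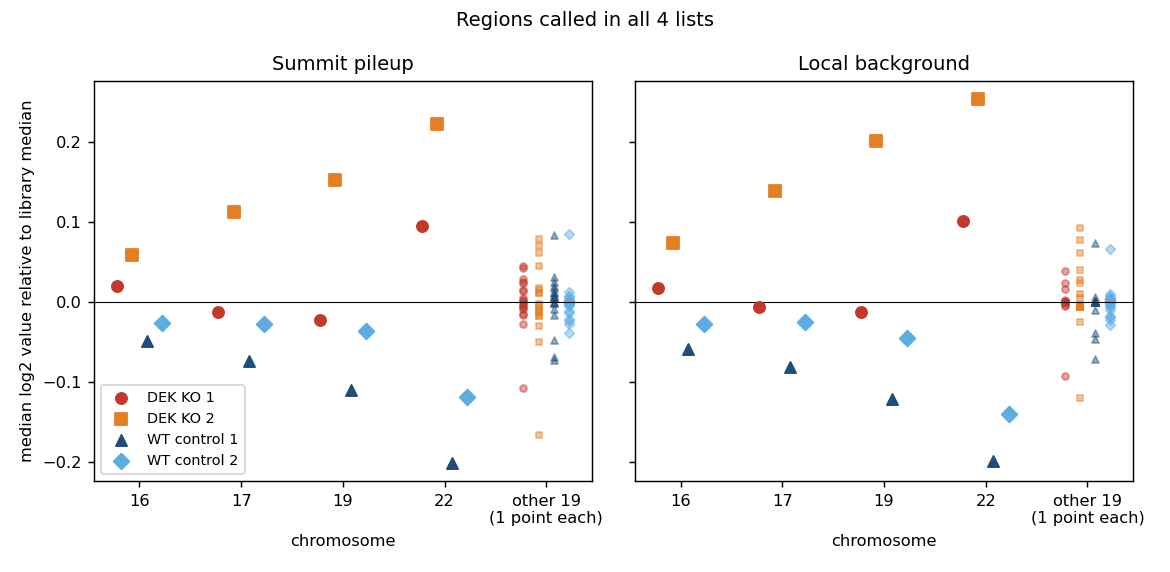
Median log2 summit pileup (left) and local background (right) of regions called in all 4 lists, relative to the library median, for chromosomes 16, 17, 19 and 22 and, as small points, the other 19 chromosomes. On chromosome 22 the pileups of DEK KO libraries 1 and 2 stand at 0.10 and 0.22 and those of WT control libraries 1 and 2 at −0.20 and −0.12, and the backgrounds follow the pileups.

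The local background moved with the pileup. On chromosome 22 the relative background was 0.10 and 0.25 in DEK KO against −0.20 and −0.14 in WT control, a 1.27-fold difference, close to the 1.25-fold difference of the summits. On chromosome 19 it was −0.01 and 0.20 against −0.12 and −0.05. The background differences were 0.09, 0.12, 0.18 and 0.35 on chromosomes 16, 17, 19 and 22, and without DEK KO library 2 they were 0.06, 0.03, 0.07 and 0.27. The background of a peak cannot fall under the genome-wide value of its list, and between 16.9% and 19.8% of peaks on the 4 chromosomes stood at that value. The lists hold no measurement of DNA copy number, and its part in the chromosome 22 difference was not tested.

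Along chromosome 22 the difference was present throughout. In all 8 bins with at least 20 shared regions both DEK KO libraries lay above both WT controls. Bin medians ran from 0.06 to 0.14 in DEK KO library 1 and from 0.18 to 0.29 in DEK KO library 2, against −0.25 to −0.12 in WT control library 1 and −0.15 to −0.09 in WT control library 2. The same held in 11 of 16 bins on chromosome 16, 9 of 17 on chromosome 17 and 6 of 12 on chromosome 19. On chromosome 19 the exceptions included the middle of the chromosome, where DEK KO library 2 stood at −0.04 and −0.05 in the bins at 25 to 30 and 30 to 35 Mb, which hold 7 and 35 protein-coding genes.

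**Figure D4:**
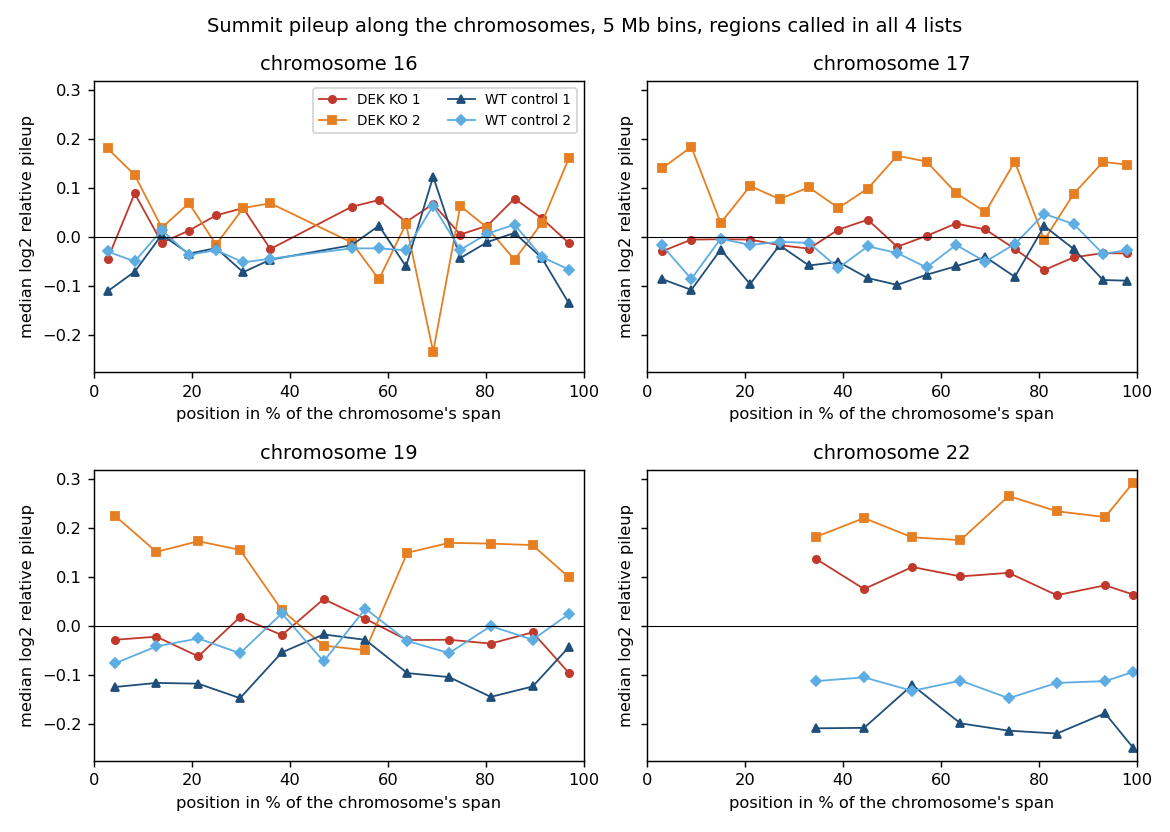
Median log2 relative pileup of shared regions in 5 Mb bins with at least 20 such regions (vertical axis) by position in percent of the chromosome's span (horizontal axis), per library. On chromosome 22 the lines of DEK KO libraries 1 and 2 stay above 0 and those of both WT controls below 0 in all 8 bins, whereas the lines cross on the other 3 chromosomes.

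Gene density sorted the libraries differently. On the 4 chromosomes the relative pileup of DEK KO library 2 was −0.02, 0.08, 0.13 and 0.16 from the least to the most gene-dense class of bins, and that of DEK KO library 1 was 0.06, 0.03, 0.02 and −0.02. In WT control library 1 it was 0.00, −0.06, −0.10 and −0.11, and in WT control library 2 it was −0.02, −0.03, −0.05 and −0.04. The relative pileups of the DEK KO libraries therefore moved in opposite directions with density. The 4 values of a region are tied, so a rise in DEK KO library 2 by itself lowers the other libraries. The fall in DEK KO library 1 can therefore not be read as a movement of its own. Over 53 bins density and relative pileup had r = −0.493 and 0.531 in DEK KO libraries 1 and 2, and r = −0.395 and −0.115 in WT control libraries 1 and 2. Over 511 bins of the other chromosomes the values were −0.171 and 0.262 in DEK KO and −0.282 and 0.0451 in WT control. These are descriptions over bins that share their libraries, and base composition, which changes with gene density, was not measured over the bins.

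With all 4 libraries, counting regions rather than averaging put the 4 chromosomes in the same order. Both DEK KO pileups lay above both WT control pileups, after this scaling, in 569 of 982 shared regions of chromosome 22 (57.9%), against 26.7% over all chromosomes. Both lay below in 55 (5.60%), against 26.6% over all chromosomes. On chromosome 19 the shares were 33.5% above and 10.6% below, on chromosome 17 32.3% and 15.3%, and on chromosome 16 30.9% and 18.7%. Outside the 4, the shares above were higher than these on chromosome 20 (35.9%, with 16.8% below) and chromosome 21 (37.1%, with 21.9% below). At gene ends of chromosome 22 it was 152 of 238 regions above (63.9%) and 4 below (1.68%). At gene ends of the other 19 chromosomes it was 14.7% above and 29.8% below. Without DEK KO library 2, an alternative added after the data were seen, DEK KO library 1 lay above both WT controls in 67.4% and below both in 12.8% of shared regions of chromosome 22, against 38.7% and 40.3% over all chromosomes. On chromosome 19 these shares were 41.2% and 32.2%, on chromosome 17 41.5% and 34.4%, and on chromosome 16 43.3% and 32.9%. Among chromosomes 16, 17 and 19 the order of the shares above was then reversed. With every list kept to the length of the shortest, the median percentile of shared regions, relative to that over all chromosomes, was 6.73 points higher in DEK KO than in WT control on chromosome 22 and 2.85 points higher on chromosome 19. At full length these differences were 6.61 and 2.56 points, and without DEK KO library 2 they were 4.55 and 0.868 points. Chromosome 20, outside the 4, had 3.35 points at full length, more than chromosome 19. Chromosomes 16 and 17 had 0.988 and 1.99 points at full length. With the top 20000 peaks of each list the differences were 6.02, 8.34, 4.23 and 21.0 points on chromosomes 16, 17, 19 and 22. Chromosome 19 then lay below chromosomes 16 and 17.

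One-genotype regions were weaker than shared ones in every list. The lower of a region's 2 percentiles had a median of 22.7 for the KO-only class and 16.5 for the WT-only class. It was above 50 in 107 KO-only regions (9.71%) and in 9 WT-only regions (3.59%). The lowest percentile of regions called in all 4 lists had a median of 57.4. KO-only regions had a median pileup of 16 and 18 in DEK KO libraries 1 and 2, and WT-only regions of 17 and 18 in WT control libraries 1 and 2. In shared regions the medians were 43 and 53 in DEK KO and 45 and 47 in WT control. Most one-genotype regions thus lay in the lower part of the lists, not far above the lowest pileups called. The other 19 chromosomes were similar. There the lower percentile had a median of 21.6 for the KO-only class and 15.8 for the WT-only class. It was above 50 in 10.1% and 3.81% of them. Percentiles come from lists of unequal length, so they do not rank the 2 classes against each other.

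**Figure D5:**
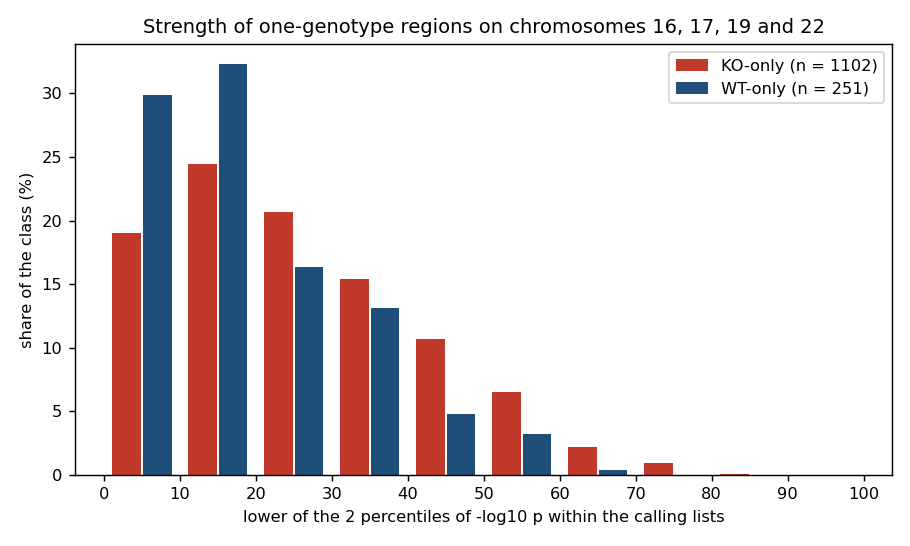
Distribution of regions called in DEK KO (red, n = 1102) or WT control (blue, n = 251) alone on chromosomes 16, 17, 19 and 22 (vertical axis, % of each class) by the lower of their 2 percentiles of −log10 p (horizontal axis, steps of 10). Both classes are concentrated at low percentiles, with 19.1% of the red and 29.9% of the blue class under 10.

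The gene-end share was lower among one-genotype regions than among shared ones. It was 93 of the 1102 KO-only regions (8.44%, exact 95% interval 6.87 to 10.2), 30 of the 251 WT-only regions (12.0%, 8.21 to 16.6) and 2208 of the 7603 shared regions (29.0%, 28.0 to 30.1). The KO-only and WT-only intervals overlap. On the other 19 chromosomes the shares were 3.22%, 5.57% and 17.1%. Chromosome 19 had the highest shares, with 31 of 223 KO-only regions (13.9%) and 12 of 49 WT-only regions (24.5%). Few promoters were open in a single genotype. Of 2928 genes on the 4 chromosomes with a promoter window, 1772 had a window open in all lists (60.5%), 19 were open in DEK KO alone, 4 in WT control alone and 1020 held no region. Of the 19, chromosome 19 held 8, chromosome 22 held 7, chromosome 17 held 3 and chromosome 16 held 1.

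On chromosome 16 the KO-only region of highest rank lay inside a gene span nearest an end of SNX29, a sorting nexin (chr16:12037005-12037457). Its pileup was 37 and 45 in DEK KO libraries 1 and 2, percentiles 77.0 and 77.3, and no peak was called there in either WT control. The next lay nearest NPIPB11 (chr16:29265256-29265512, percentiles 79.1 and 73.7) and LITAFD (chr16:8888263-8888697, 76.8 and 73.7). The first of these lies between genes, 116 kb from NPIPB11, which belongs to a family of near-identical copies on this chromosome. Placement of reads is uncertain in such copies, and in the region itself it was not tested. The fifth lay 240 kb from IRX3, a homeobox factor used in nephron patterning (chr16:54526982-54527401, 78.7 and 72.5). At gene ends the first were MAPK3, which encodes the kinase ERK1, with a pileup of 32 and 35 in DEK KO, and XYLT1, which starts glycosaminoglycan chains, with 18 and 22. The WT-only regions of highest rank lay in SHISA9 (pileup 31 and 30 in WT control libraries 1 and 2) and at the end of RIPOR1 (78 and 78).

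Some chromosome 16 regions open in every list differed widely in rank. Ranks come from lists of unequal length, so they serve to pick such regions and the pileups are given. A region 1.40 kb from an end of SCNN1B, the beta subunit of the epithelial sodium channel (chr16:23279630-23281327), had a pileup of 63 and 85 in DEK KO libraries 1 and 2 against 14 and 18 in WT control libraries 1 and 2. A region inside a gene span nearest RBFOX1, a neuronal splicing factor (chr16:5905616-5906697), had 76 and 105 against 11 and 16. Neither overlaps between genotypes. The opposite held beside TENT4B, a non-canonical poly(A) polymerase (chr16:50154765-50155853), with 46 and 51 in DEK KO against 121 and 107 in WT control, and in ARHGAP17, with 11 and 11 against 22 and 28. These 4 were picked as the extremes in rank, so the lack of overlap follows from the pick and their differences carry no test. The strongest shared regions lay at the ends of C16orf46 and of CNOT1, the scaffold of a deadenylase complex. At CNOT1 the pileup was 201 and 256 in DEK KO against 257 and 246 in WT control, so the genotypes overlapped.

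On chromosome 17 the KO-only region of highest rank lay near SSH2, a cofilin phosphatase (chr17:29958892-29960050), with a pileup of 50 and 78 and percentiles of 82.2 and 87.9 in DEK KO libraries 1 and 2. The next lay nearest BECN1, an autophagy initiator (chr17:42817879-42818578, 74.4 and 74.0), NPLOC4, a cofactor of the p97 segregase (chr17:81560856-81561923, 73.8 and 75.7), LGALS3BP, a secreted galectin ligand (71.9 and 69.2), and USP36, a nucleolar deubiquitinase (68.5 and 72.2). At gene ends the first were GUCY2D, a guanylate cyclase of the retina (pileup 38 and 36), and MYO1C, an unconventional myosin (29 and 36). FOXK2, whose window is printed above, had a pileup of 34 and 53 in DEK KO. The first WT-only regions lay near ABCC3, an organic anion exporter (pileup 53 and 61 in WT control libraries 1 and 2), and SMURF2, a ubiquitin ligase of TGF-beta signalling (56 and 53). At gene ends the first was PSME3, a proteasome activator subunit (18 and 18).

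Among shared regions of chromosome 17, that nearest CFAP52, a protein of motile cilia (chr17:9684833-9685738), had a pileup of 34 and 60 in DEK KO against 14 and 13 in WT control. That near TAOK1, a kinase of the MAPK cascades (chr17:29412528-29413679), had 30 and 38 against 13 and 13. A region 593 kb from SOX9, a transcription factor of kidney and cartilage development (chr17:71526954-71528278), had 20 and 13 in DEK KO against 51 and 54 in WT control. A region 1.53 kb from SLC47A2, a kidney exporter of organic cations (chr17:19720513-19721179), had 13 and 12 against 35 and 31. These 4 were picked as extremes in rank, so the lack of overlap between genotypes follows from the pick. The strongest shared regions lay near TIMP2, an inhibitor of metalloproteinases, and at BCAS3, where the pileup was 137 and 220 in DEK KO against 220 and 195 in WT control.

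On chromosome 19 the KO-only region of highest rank lay near ZNF473, a zinc finger protein of histone mRNA processing (chr19:50039575-50040439), with a pileup of 33 and 52 and percentiles of 71.7 and 81.6 in DEK KO libraries 1 and 2. The next lay over the promoter of MLLT1 (chr19:6279963-6280362), with a pileup of 32 and 60 and percentiles of 65.8 and 83.0. Then came regions near UNC13A, which primes synaptic vesicles (63.0 and 79.2), YJU2B (61.1 and 78.5) and MYO1F, a myosin of leukocytes (64.3 and 60.2). In the first 4 of these 5 the percentile was higher in DEK KO library 2. At gene ends, RASAL3, a Ras GTPase-activating protein, had a pileup of 35 and 33. The WT-only regions of highest rank lay near OR7A5, an olfactory receptor (pileup 25 and 26 in WT control libraries 1 and 2), and ARHGAP35, a GTPase-activating protein (59 and 50), and at the end of WDR83 (38 and 41).

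Shared regions of chromosome 19 with the widest gain in rank lay near KANK2, an adaptor of focal adhesions (chr19:11178650-11179098), and CBLC, a ubiquitin ligase of epithelial cells (chr19:44774082-44774772). Their pileups in DEK KO were 37 and 55 near KANK2 and 34 and 43 near CBLC, against 13 and 12, and 16 and 18, in WT control. The widest losses lay near GET3, the ATPase that delivers tail-anchored proteins (17 and 16 in DEK KO against 41 and 50 in WT control), and SUGP1, a splicing factor (12 and 10 against 24 and 29). At the promoter of DNM2, a GTPase of endocytosis and among the strongest shared regions, the pileup was 164 and 277 in DEK KO against 208 and 212 in WT control. There DEK KO library 2 was the highest of the 4 and DEK KO library 1 the lowest.

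On chromosome 22 the KO-only region of highest rank lay in a gene span near OSBP2, an oxysterol-binding protein (chr22:30829894-30831190), with a pileup of 39 and 76 and percentiles of 74.9 and 87.2 in DEK KO libraries 1 and 2. The next lay near DGCR2 (chr22:19060278-19060836, 67.0 and 67.6), SEZ6L (70.4 and 63.0), IFT27, a part of the intraflagellar transport machinery (73.6 and 62.6), and RAC2, a small GTPase of blood cells (66.0 and 62.5). At gene ends the first were TTLL1, a tubulin polyglutamylase (pileup 42 and 58), and SMTN (18 and 24). The WT-only regions of highest rank on chromosome 22 were weak. They lay 121 kb from CRYBA4 (pileup 18 and 18 in WT control libraries 1 and 2), 285 kb from BRD1 (18 and 19) and at the end of SLC25A18, a mitochondrial glutamate carrier (16 and 15). Their lower percentiles were 34.3, 34.3 and 23.3, and no WT-only region of this chromosome exceeded 34.3.

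A second OSBP2 region (chr22:30717328-30718176), called in all lists, had a pileup of 36 and 46 in DEK KO against 14 and 16 in WT control. A region near the read-through gene TPTEP2-CSNK1E (chr22:38298452-38299198) had 53 and 60 against 11 and 21. Both are among the widest gains in rank. Losses were smaller. A region 1.80 kb from CSDC2 had 26 and 18 in DEK KO against 44 and 43 in WT control, and a region in MYH9, a non-muscle myosin heavy chain (chr22:36368440-36369431), had 44 and 50 against 60 and 60. At MYH9 the local background ran the other way, with 17.3 and 15.7 in DEK KO against 12.6 and 14.4 in WT control.

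Gene families of the 4 chromosomes were read from lists chosen with earlier results of these data known, and each region was assigned to the gene whose end was nearest within 50 kb. Over all 3925 protein-coding genes 12046 regions were assigned, 822 of the KO-only class (6.82%) and 176 of the WT-only class (1.46%), and 613 genes had more of the KO-only and 111 more of the WT-only class. Of the 99 regions assigned to 21 nephron transport genes, 10 were KO-only (10.1%) and 1 was WT-only. SLC12A3, the thiazide-sensitive cotransporter of the distal tubule, had 2 KO-only and 1 WT-only. SCNN1G, the gamma subunit of the epithelial sodium channel, PVALB, a calcium buffer of the distal tubule, and GGT1, a brush border enzyme with near-identical copies, had 2 KO-only regions each and no WT-only. The median surplus per gene was 0 in this list, as it was in all genes.

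The 246 zinc finger genes of chromosome 19, most of them KRAB-domain repressors, had 28 regions of the KO-only class among 424 assigned (6.60%), near the 6.82% over all genes, and 2 of the WT-only class (0.472%, against 1.46%). ZNF429 had 3 KO-only regions, and ZNF536 and ZNF91 had 2 each. Their promoters were widely open: 182 of 216 with a window were open in all 4 lists, against 1772 of 2928 over all genes. Promoters of tissue-restricted families on the same chromosomes were mostly closed. No promoter was open in any list among 20 type I keratins, 13 kallikreins and 8 CC chemokines with a window. Their one-genotype counts were 1 KO-only and 2 WT-only among 40 assigned for the keratins. They were 2 and 0 among 9 for the kallikreins and 1 and 0 among 19 for the chemokines. The 22 CEACAM and PSG genes had 5 and 3 (7.35% and 4.41% of those assigned), with CEACAM21 and CEACAM8 holding 2 KO-only regions each. All of these counts are small. Regions called in all lists were 23 of the 40 assigned to the keratins and 35 of the 68 assigned to the CEACAM and PSG genes.

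The 28 tumour suppressor and chromatin genes had 8 regions called in DEK KO alone among 138 assigned (5.80%) and 4 in WT control alone (2.90%), and 21 of their 24 promoters with a window were open in all lists. CBX6, a Polycomb chromodomain protein, had a promoter open in DEK KO alone. SMARCA4, the ATPase of BAF remodelling complexes, and CBX7 had 1 region of each class. The HOXB cluster and the AP-1 genes JUNB, JUND and FOSB had no one-genotype region among 26 and 12 assigned, with 13 and 10 open in all lists. Over all genes 6.82% of assigned regions were KO-only and 1.46% WT-only. With so few regions assigned, the absence cannot be read as a trait of these genes. Of the smaller families, the cadherins of chromosome 16 had 2 KO-only and 1 WT-only among 56 assigned and the metallothioneins 1 and 0 among 22. The APOBEC3 genes had 2 and 0 among 12 and the APOL genes 2 and 1 among 23. These counts rest on few regions and are given as values.

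The renal identity of the libraries was read at gene ends. PAX8, a transcription factor of the nephron, CDH16, a kidney cadherin, CDH2 and VIM had a gene-end peak in all 4 lists, and CA9, a hypoxia target, had none in any. Among blood cell genes, ITGAM and ITGAL had one in every list, CD79A and TYROBP in DEK KO library 2 alone, and CD79B, CD22 and SPN in none. The endothelial genes PECAM1, CDH5 and ICAM2 had none. Among neural genes MAPT and SNAP25 had one in every list, and GFAP, RBFOX3 and MBP had none. Of the hepatocyte genes APOH had one in every list, and ALB, HP, TTR and CYP2D6 had none.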

How the data were processed

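Per the submitters' processing notes, the tools named include MACS2 2.2.7.1, Bowtie2 2.2.5, cutadapt 1.18 and Picard 2.26.9, and the build is GRCh38. Their settings, and whether reads were shifted for the transposase, are not given in the sources used here, and the labels' extraction text describes RNA and an mRNA kit although the molecule is genomic DNA. Each library has its own deposited peak list. The authors deposited per peak an integer score, a fold (ratio of pileup to background at the summit), p and q on the −log10 scale and a summit offset. The lowest −log10 q was 1.30 to 1.32.

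Peaks off chromosomes 1 to 22 and X (135 to 167 per list) were left out. Pileup and background were solved from fold and −log10 p under a Poisson model (largest error 0.00098) and tested on simulated data. Sequencing depth is not given, and intervals cover counting error only. Genes and 22132 promoter windows came from RefSeq tables of GRCh38.p14. The gene table has no strand, so a gene end is a start or an end of transcription. Arms were split at cytoband boundaries. Genotype comparisons are descriptions. The 4 chromosomes were set against the other 19 with an exact sign-flip permutation test over libraries.

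The regions, lists and rules were chosen with earlier results of these data known. Named, per chromosome, were the 5 KO-only and 2 WT-only regions of highest lower percentile, the first 2 KO-only and 1 WT-only at gene ends, the 2 strongest shared regions, the 2 with the largest gain and loss in percentile between genotypes, the genes with most one-genotype regions, and up to 4 members per list. Some items these rules name are not reported here. Alternatives changed list length, q threshold, overlap, region definition, gene-end distance and libraries. Python 3.11.15, numpy 2.4.6, pandas 2.3.3 and scipy 1.17.1 were used.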

Additional observations from a re-analysis of the deposited data

How the results depend on the processing

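In all 10 settings, the reported one included, the KO-only share of each chromosome and of the 4 together was above that of the other 19 chromosomes. The chromosomes were chosen for this share, so this is a description. With lists of equal length the share was 72.0% for the 4 together (54.8% on the others) and 69.6%, 70.3%, 73.8% and 77.3% on chromosomes 16, 17, 19 and 22. With the top 20000 peaks of each list there were 280 KO-only and 101 WT-only regions, and the share was 73.5% together (48.3%) and 66.7%, 72.6% and 75.3% on chromosomes 16, 17 and 19. With −log10 q of at least 5 it was 77.5% together (63.9%), 75.7% on chromosome 16 and 75.1% on 17. Where peaks had to cover 50% of a region it was 77.9% together (64.3%), 76.0% and 75.8%. With summit windows it was 78.3% together (67.3%) and 76.7% on chromosome 16. Leaving out 1 library in turn gave 1603 to 2695 KO-only and 504 to 887 WT-only regions, since a genotype then needs 1 list, and shares of 64.4% to 82.1% together, 60.3% to 84.9% on chromosome 16, 63.1% to 81.6% on 17, 66.0% to 85.5% on 19 and 74.6% to 86.1% on 22. The lowest values came without WT control library 1, where the others had 50.8%. The chromosome 22 pileup difference ran from 0.27 to 0.40 over these. The difference in gene-end share between the 4 chromosomes and the others ran from 10.3 to 10.9 percentage points, and was 9.20 with gene ends taken within 500 bp, 12.6 within 2 kb and 10.97 with −log10 q of at least 5. No result changed sign. No paired analysis was possible because the genotype comparisons come from no test and the labels do not say that a replicate number marks a shared culture.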

Other observations

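Some genes collected several one-genotype regions within 50 kb of their ends. CCNE1, the cyclin of the G1 to S transition, and PTPRS, a receptor tyrosine phosphatase, both on chromosome 19, had 4 KO-only regions each and no WT-only region. GAB4 on chromosome 22 had 3, as did HS3ST3A1, a heparan sulfate sulfotransferase, and KRABD2 on chromosome 17, and CHP2 and CLEC19A on chromosome 16. The largest counts in the other direction were 2 WT-only regions at CMC2 on chromosome 16, MYADM on chromosome 19 and IL17RA, the interleukin 17 receptor subunit, on chromosome 22. With a count of 3 or 4 these genes are named as values, with no test.

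Next to the centromere of chromosome 16, the bin at 35 to 40 Mb held 8 regions called in all lists and no protein-coding gene. Their median relative pileup was 0.31 and −0.91 in DEK KO libraries 1 and 2, against 0.26 and 0.30 in WT control libraries 1 and 2, so DEK KO library 2 alone was low. In the gene-poor bin at 60 to 65 Mb, with 38 such regions, the values were 0.07 and −0.23 against 0.12 and 0.06.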
